A study of Mus musculus with 5 samples.

Results

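Pericytes are the mural cells of capillaries, defined here as cells of the inguinal white adipose tissue (iWAT) with at least 3 unique molecular identifiers (UMIs) of Rgs5, at most 1 of Myh11 and 0 of Pdgfra, Ptprc and Pecam1. The rule selected 130 of 46684 cells, referred to below as Rgs5+ cells because the label held for only some of them. The cells were chosen by the measured UMI counts of these 5 genes, so their values are descriptions and carry no test. Rgs5+ cells were compared with 1036 smooth muscle cells (at least 3 Myh11 and 10 Acta2 UMIs) and 6760 Pdgfra stromal cells (at least 3 Pdgfra UMIs, with 0 of Rgs5, Myh11, Ptprc and Pecam1).

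The tissue came from male mice of C57BL/6J background at 7, 14, 18, 21 and 28 d after birth, with weaning at 21 d. At each age the iWAT of 2 untreated mice, 1 from each of the same 2 litters, was pooled into 1 library, so an age is a single sample and no test between ages was possible. The stromal vascular fraction was released with collagenase VIII, dead cells were removed and the inguinal lymph node was not deliberately taken out. The 130 cells held 982948 UMIs with a median of 6146 per cell, and 91, 18, 4, 4 and 13 of them came from the 7, 14, 18, 21 and 28 d libraries. Across libraries 243 cell barcodes occurred more than once, and 2 Rgs5+ cells carried such a barcode.

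Pericytes sit in the basement membrane of capillaries and are recruited by endothelial PDGF-B through the receptor Pdgfrb. They share the Notch3 pathway with vascular smooth muscle but carry little of the contractile apparatus of arterioles. Their excitability is set in part by an ATP-sensitive potassium channel, built from the pore subunit Kcnj8 and the regulatory subunit Abcc9.

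Kcnj8 (chr6:142564837-142571614) and Abcc9 (chr6:142587862-142702315) are neighbours on the minus strand of GRCm38, with 16247 bases between them. Their promoters are shown because these were the 2 pericyte markers called higher than in smooth muscle cells. Each RefSeq promoter (GRCm38.p6, 250 bases before to 50 after the start, 5′ to 3′) held 1 copy of TGGGAA, the core bound by the Notch effector Rbpj, here in capitals. The windows are chr6:142571565-142571864 and chr6:142702225-142702524.
Kcnj8: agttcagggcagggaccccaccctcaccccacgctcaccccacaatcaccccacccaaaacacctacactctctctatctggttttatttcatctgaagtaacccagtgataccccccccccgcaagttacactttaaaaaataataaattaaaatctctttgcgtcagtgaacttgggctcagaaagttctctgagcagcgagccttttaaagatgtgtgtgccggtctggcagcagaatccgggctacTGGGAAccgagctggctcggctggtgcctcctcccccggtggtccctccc
Abcc9: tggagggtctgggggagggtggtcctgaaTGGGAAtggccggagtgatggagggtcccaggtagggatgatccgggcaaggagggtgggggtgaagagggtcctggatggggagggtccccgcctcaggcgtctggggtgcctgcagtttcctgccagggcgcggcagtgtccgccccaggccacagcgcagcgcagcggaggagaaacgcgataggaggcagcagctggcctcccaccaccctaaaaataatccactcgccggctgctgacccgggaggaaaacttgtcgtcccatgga
TGGGAA or its reverse complement TTCCCA occurred in a promoter of 28.3% of 27025 genes, so a match is common and is a description only. Among the 12 pericyte markers 8 had a promoter in the table and 3 of these, Kcnj8, Abcc9 and Vtn, held the motif. The CArG box, the element bound by serum response factor, was matched only as CCWWWWWWGG, where W is A or T. Variants with a mismatch were not counted, so a promoter without this exact form may still hold one. The exact form was in a promoter of 1.81% of all genes and in none of the 8. It was present in 2 of 19 contractile genes with a promoter, Myl6 and Myl9.

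The label was checked against 11 pericyte markers other than Rgs5 and against 6 stromal genes (Lum, Dcn, Apod, Dpt, Pi16 and Col1a1). Of the 91 Rgs5+ cells at 7 d, 45 had at least 1% of their UMIs in the stromal genes, with a median of 31314 counts per 1000000 UMIs (CPM). The Pdgfra stromal cells of that library had a median of 24538 CPM. No Rgs5+ cell of a later age reached that limit. The limit of 1% was set after the values were seen. The nearest cells on either side held 8495 and 10417 CPM, and 14 cells lay between 5000 and 20000 CPM. These 45 matrix-rich cells were deeper than the remaining 7 d cells, with a median of 12332 against 4513.5 UMIs.

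Col1a1 is one of the 6 genes that set the range and Rgs5 is the gate gene, so their levels (24755 and 470 CPM in the matrix-rich cells, 1753 and 3770 CPM in the remaining 7 d cells) follow from the choice of cells. The 11 other pericyte markers had no part in either limit. All 11 were lower in the matrix-rich cells than in the remaining 7 d cells, and 8 of 11 were higher than in the Pdgfra stromal cells of the same age. Pdgfrb, the PDGF-B receptor, stood at 171 against 573 CPM, with 54.1 CPM in those stromal cells. Higd1b, a mitochondrial gene typical of pericytes, had 0 UMIs in the matrix-rich cells and 116 CPM in the remaining 7 d cells. Vtn stood at 1.94 against 171 CPM. The matrix-rich cells are therefore called by their leading genes rather than by the label. At the edge of the Rgs5 gate, the 27 cells with exactly 3 UMIs held 187 CPM of Pdgfrb, and the 31 cells just outside, with 2 UMIs and the other limits kept, held 89.5 CPM.

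A second range held 14 cells with under 1% stromal UMIs and at least 3 UMIs of Ccl19 and Ccl21a together, chemokines that guide lymphocytes in lymph nodes. There were 8 at 7 d and 6 at 14 d. Ccl21a has near-identical copies on chromosome 4, so reads from these copies cannot be told apart here. At 7 d these 8 cells held 10363 CPM of Ccl21a and 4850 CPM of Ccl19, together with 2453 CPM of the complement gene C3 and 855 CPM of the BMP antagonist Grem1. Of the 11 pericyte markers, 10 were lower in these 8 cells than in the remaining 7 d cells, and Vtn was higher, at 506 against 171 CPM. Kcnj8, Cspg4, Higd1b, Cox4i2 and Ndufa4l2 had 0 UMIs in them, where 3 UMIs would be 33.8 CPM. Notch3 stood at 225 CPM, Pdgfrb, Mcam and Abcc9 at 67.5 CPM each and Rgs4 at 22.5 CPM. The 6 cells at 14 d held 627 CPM of Notch3, 560 of Vtn, 403 of Abcc9, 358 of Pdgfrb and 89.6 of Kcnj8.

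The remaining 71 cells, 38 at 7 d and 33 at later ages, held all 11 markers above the level in Pdgfra stromal cells, both at 7 d and later. Pdgfrb was found in 57 of the 71 cells, Abcc9 in 55 and Kcnj8 in 40. In the deeper matrix-rich cells these were found in 30, 29 and 26 of 45, and in the Ccl19/Ccl21a cells in 9, 9 and 2 of 14. The median cell held a UMI of 7 of the 11 markers, against 4 in the matrix-rich and 3.5 in the Ccl19/Ccl21a cells. As a background level, the marker list with Rgs5 summed to 69.4 CPM at 7 d and 14.9 CPM later in T cells. The share of cells that background UMIs alone would mark was not computed. Because the 3 ranges were drawn from these data, differences between them are given without a test.

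**Figure D1:**
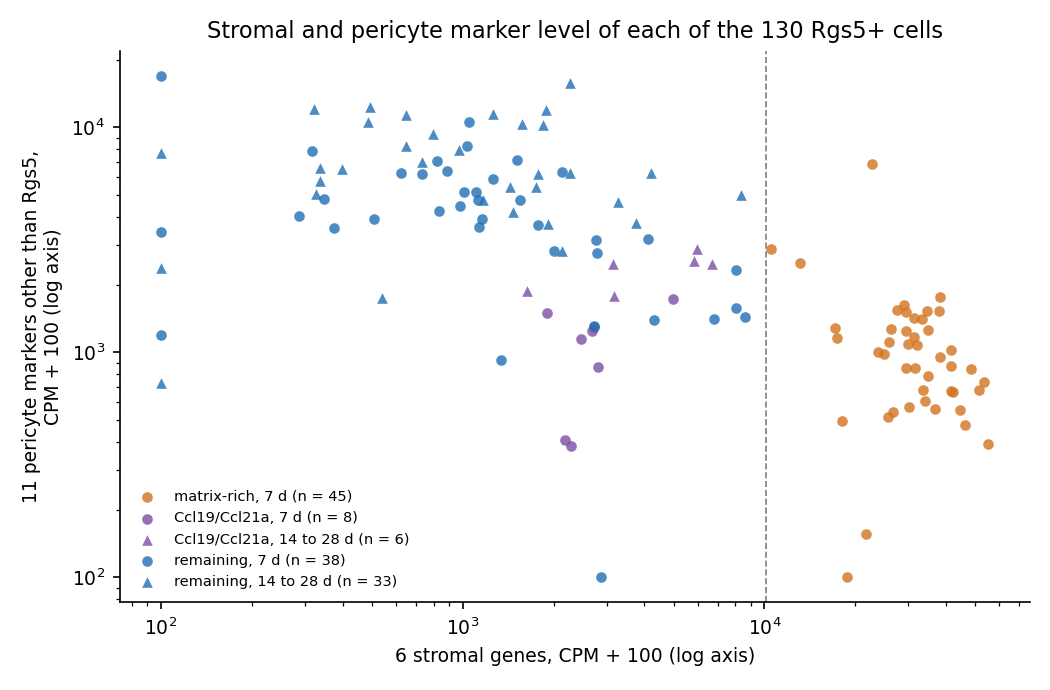
Each point is 1 of the 130 Rgs5+ cells, with the summed CPM of 6 stromal genes on the x axis and of 11 pericyte markers on the y axis, both plus 100 on log axes. Circles are 7 d, triangles are later ages, colours are the 3 ranges and the dashed line is the 1% limit: all 45 matrix-rich cells are circles.

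**Figure D2:**
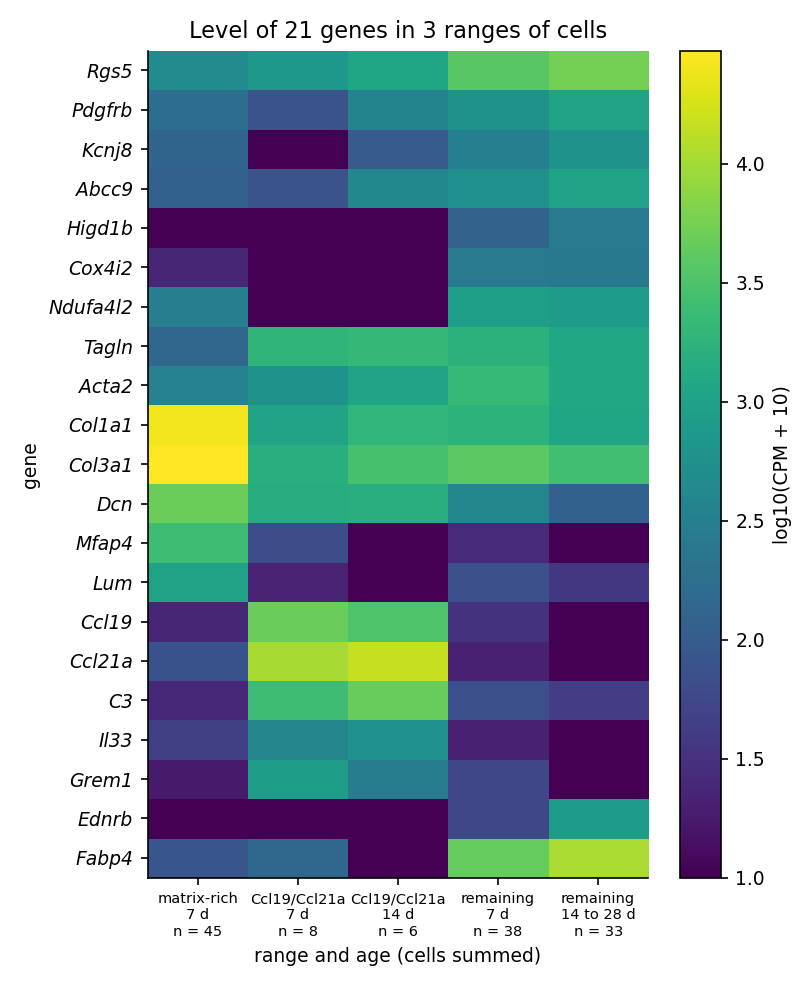
Colour gives log10(CPM + 10) of 21 genes in the UMIs summed over each range and age, with the number of cells below. Collagens mark the matrix-rich column, Ccl19, Ccl21a and C3 the second range, and Rgs5, Pdgfrb, Kcnj8, Abcc9 and Fabp4 the remaining cells.

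Rgs5+ cells made up 0.589% of the 7 d library (95% exact binomial interval 0.474 to 0.722%). In the 14, 18, 21 and 28 d libraries the share was 0.312, 0.0634, 0.0347 and 0.171%. The interval at 21 d, from 0.00946 to 0.0889%, lay just below that at 28 d, from 0.0908 to 0.291%. With a stricter filter on genes and mitochondrial UMIs the 28 d share was 0.0886%, which lies within that 21 d interval. Intervals cover counting error only, not the difference between animals. Without the matrix-rich and Ccl19/Ccl21a cells the share was 0.246% at 7 d (0.174 to 0.337%) and 0.208% at 14 d (0.108 to 0.363%), and these intervals overlapped. Against smooth muscle cells the ratio was 0.120, 0.136, 0.0597, 0.133 and 0.283 in order of age, and its interval at 28 d, 0.140 to 0.532, overlapped that at 7 d, 0.0951 to 0.149. Without those cells the 7 d ratio was 0.0499 (0.0351 to 0.0692), and the 2 intervals no longer overlapped. Those cells were chosen after the values were seen and none came from 28 d. The 7 d ratio could therefore only fall and the 28 d ratio could not move, so the loss of overlap is a description only.

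The comparison with smooth muscle cells asks which genes separate all 130 Rgs5+ cells, with the 45 matrix-rich and 14 Ccl19/Ccl21a cells among them, from the mural cells of larger vessels. It used UMIs summed per class, with 7 d as 1 pair and the later ages pooled as the other, because each later age had under 20 Rgs5+ cells. edgeR's quasi-likelihood test with the pair as a block called 75 of 10321 genes higher (0.727%) and 162 lower (1.57%), at a Benjamini-Hochberg adjusted p under 0.05 and a fold of 2. The 2 pairs leave 1 residual degree of freedom. Without the block edgeR called 0 genes, while 1020 had an unadjusted p under 0.05. DESeq2 with the block called 63 higher and 100 lower. Both classes of a library come from the same mice, which is the reason for the block. In the later pair the libraries were summed first, so the block does not adjust for their mix.

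Of the 12 pericyte markers, 11 were tested, and 2 were called higher and 0 lower, beside 0.727% and 1.57% of all genes. In the fit without the matrix-rich and Ccl19/Ccl21a cells 7 of 11 were called higher and 0 lower, beside 2.0% of all its genes higher and 3.44% lower, and the median log2 fold was 1.23 rather than 0.61. The 5 added were Pdgfrb, Higd1b, Ndufa4l2, Cox4i2 and Vtn. At 7 d all 11 markers were lower in the matrix-rich cells than in the remaining cells, and 10 of 11 in the Ccl19/Ccl21a cells. Those cells were set apart after the values were seen, so this rise follows from leaving them out and is a description only. Kcnj8 stood at 149, 306, 571, 831 and 473 CPM in order of age, against 30.8, 47.8, 26.1, 84.2 and 60.5 CPM in smooth muscle cells. The ranges of the 2 classes did not overlap. The log2 fold was 2.78 ± 0.33 (SE; edgeR adjusted p = 0.0086). Abcc9 stood at 205, 1146, 543, 969 and 398 CPM against 61.1, 173, 116, 63.9 and 93.3 CPM, a log2 fold of 2.28 ± 0.33 (adjusted p = 0.014). It too was higher in 5 of 5 libraries. With the other limits kept, Kcnj8 stood at 34.9 CPM in cells with 1 Rgs5 UMI and 342 CPM in those with at least 10. Abcc9 stood at 38.8 and 625 CPM. In cells with at least 3 Rgs5 UMIs but Myh11 over 1 they stood at 45.6 and 105 CPM. The direction of both markers is therefore not independent of the rule. Pdgfrb was higher in 5 of 5 libraries but its log2 fold of 0.68 ± 0.30 did not pass (adjusted p = 0.42), while it was 1.23 in the fit without those cells. Higd1b had a log2 fold of 0.33 ± 0.53 (edgeR adjusted p = 0.91) over all Rgs5+ cells and 1.41 without them. Notch3, the receptor shared by mural cells, had a log2 fold of -0.25 ± 0.30 (adjusted p = 0.87).

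The vasoactive receptor gene Agtr1a, which encodes an angiotensin receptor, stood at 30.6, 98.3, 679, 312 and 125 CPM. Smooth muscle cells held 13.4, 10.9, 36.5, 17.4 and 60.5 CPM. The log2 fold was 2.23 ± 0.45 (adjusted p = 0.046), and it missed the threshold without the 14, 21 or 28 d library. The vasoactive genes Agtr1a, Kcnj8 and Abcc9 were the members of the list of 21 channels and vasoactive receptors called higher, of 19 tested. Over all genes 0.727% were called higher and 1.57% lower. The 2 called lower were P2rx1, an ATP-gated channel, and Kcnmb1, a subunit of the calcium-activated potassium channel. P2rx1 had 0 UMIs in Rgs5+ cells and 127 CPM in smooth muscle cells, at least 41.7-fold lower against the floor of 3 UMIs over the group.

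Nr1h3, the lipid-sensing receptor LXR alpha, stood at 7.64, 65.5, 272, 208 and 348 CPM, against 1.09, 7.54, 5.21, 2.90 and 26.2 CPM in smooth muscle cells (log2 fold 3.69 ± 0.49, adjusted p = 0.0098). The transcript 1810011H11Rik had the largest log2 fold among the named genes higher than in smooth muscle cells, 5.24 ± 0.66 (adjusted p = 0.0086). All 38 of its UMIs and all 42 of Nr1h3 lay in the remaining cells. Mgp, an inhibitor of calcification, stood at 2527, 2205, 1494, 6992 and 1519 CPM against 88.2, 366, 1043, 349 and 869 CPM (log2 fold 3.51 ± 0.67, adjusted p = 0.038), with 66.5% of its UMIs in matrix-rich cells. It missed the threshold without the 14 d or the 21 d library.

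Most other named genes called higher lay largely in the 14 Ccl19/Ccl21a cells. These cells held 97.8% of the Ccl21a UMIs, 94.7% of C3, 88.1% of Grem1, 97.4% of Bst1, 93.3% of Dsc3 and 74.0% of the alarmin Il33. Ccl19 had a log2 fold of 3.57 ± 0.33 (adjusted p = 0.0056), but without the matrix-rich and Ccl19/Ccl21a cells its log2 fold was -2.38. Ccl19 and Ccl21a were higher in 2 of 5 libraries. Of the 75 genes called higher, 24 were also called higher in the fit without those cells.

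Contractile genes were lower in Rgs5+ cells, since 16 of 22 tested were called lower and 0 higher, beside 1.57% and 0.727% of all genes. The median log2 fold was -2.48 against 0.01 over all genes. The gates use Myh11 and Acta2, whose levels move with these genes, so this direction is not independent of the rule. Tagln, an actin-binding protein, stood at 691, 1791, 1331, 761 and 871 CPM against 8476, 5236, 5852, 5708 and 4946 CPM, a log2 fold of -2.75 ± 0.40 (adjusted p = 0.014). Cnn1, or calponin, had 6 UMIs in all Rgs5+ cells, and its log2 fold was -6.16 ± 0.54 (edgeR adjusted p = 0.0056). The size of that fold rests on few UMIs. Des, the intermediate filament desmin, was not separated (log2 fold 0.23 ± 0.41, adjusted p = 0.92).

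Gja5, an arterial connexin, and Rergl were at 0 UMIs in Rgs5+ cells, at least 24.9-fold and 23.7-fold lower than in smooth muscle cells. Nrarp, a feedback target of Notch, was the member of the Notch list called lower, of 13 tested, beside 1.57% of all genes (log2 fold -2.75 ± 0.37, edgeR adjusted p = 0.011). The smooth muscle gate does not exclude Pecam1 or Ptprc, and that class carried 463 CPM of 7 endothelial markers at 7 d, against 31.8 CPM in Rgs5+ cells. Cldn5, an endothelial junction gene called lower (log2 fold -4.67 ± 0.46, edgeR adjusted p = 0.0056), is one of the 7 and had 5 UMIs in Rgs5+ cells. Cldn5 was not among the genes tested when the smooth muscle gate required 0 UMIs of Pdgfra, Ptprc and Pecam1. P2rx1 and Gja5 were still called lower with that gate, but not by DESeq2.

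**Figure D3:**
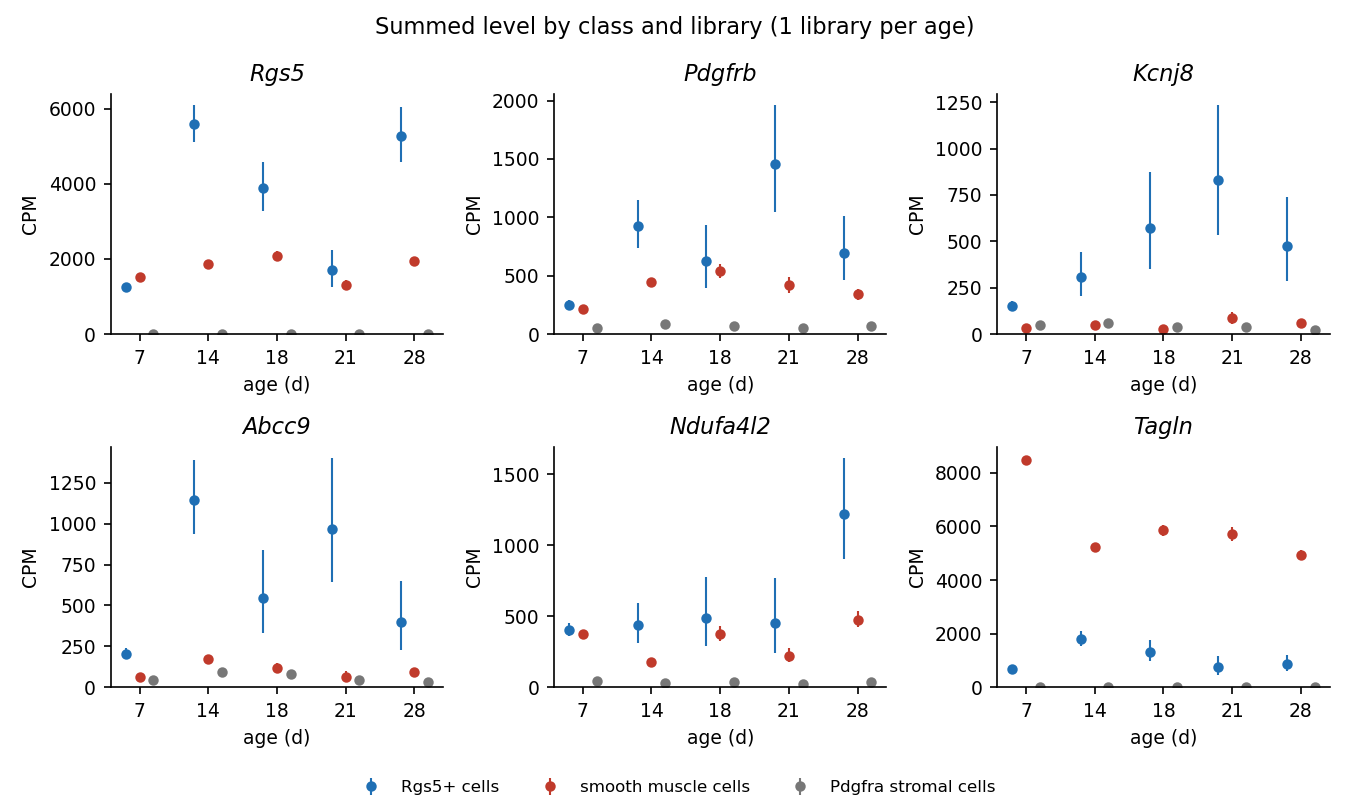
Summed CPM of 6 genes (y axis) at each age in d (x axis) in Rgs5+ cells, smooth muscle cells and Pdgfra stromal cells, with 95% Poisson intervals that cover counting error only. Kcnj8 and Abcc9 were higher in Rgs5+ cells at every age, and Tagln was higher in smooth muscle cells.

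The comparison with Pdgfra stromal cells asks which genes separate Rgs5+ cells from the fibroblast and preadipocyte compartment. In the same test 279 of 12035 genes were called higher (2.32%) and 187 lower (1.55%). Without the block 16 were higher and 7 lower. The later pair mixed ages differently in the 2 classes. Of the later UMIs, 91590 of 197460 came from 14 d in Rgs5+ cells, and 59497505 of 97192654 from 21 d in stromal cells. The block does not adjust for this difference.

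Of 11 pericyte markers tested, 9 were called higher and 0 lower, beside 2.32% and 1.55% of all genes. The median log2 fold was 3.52 against -0.08 over all genes. The 2 classes are gated on Rgs5 itself (at least 3 against 0 UMIs), and Pdgfrb stood at 61.1 CPM in cells with 1 Rgs5 UMI and 681 CPM in those with at least 10, so the direction of these markers is not independent of the rule. Higd1b stood at 26.7, 131, 109, 138 and 523 CPM, against at most 0.425 CPM in the stromal cells of any library (log2 fold 9.73 ± 1.13, adjusted p = 0.0019). All 62 of its UMIs lay in the remaining cells. Cox4i2, a hypoxia-linked subunit of cytochrome oxidase, had a log2 fold of 6.05 ± 0.50 (adjusted p = 0.00084). Pdgfrb had one of 2.79 ± 0.45 (adjusted p = 0.0080). Cspg4, the NG2 proteoglycan, and Vtn did not pass, with adjusted p = 0.081 and 0.086.

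Contractile genes were higher than in stromal cells: 12 of 18 tested were called higher and 0 lower, beside 2.32% and 1.55% of all genes. Mylk, the myosin light chain kinase, had a log2 fold of 4.68 ± 0.41 (adjusted p = 0.00084), and Des one of 5.50 ± 0.51 (adjusted p = 0.00084). The list lay below smooth muscle cells and above stromal cells, as the plot of both folds shows. The stromal gate requires 0 Myh11 UMIs and the Rgs5+ gate allows 1, and Acta2 stood at 2256 CPM in Rgs5+ cells with 1 Myh11 UMI against 500 CPM in those with 0, so the upper side of this order is not independent of the gates either.

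Vasoactive genes were also higher, with 9 of 16 channels and receptors called higher and 0 lower, beside 2.32% and 1.55% of all genes. The endothelin receptor gene Ednrb had a log2 fold of 7.66 ± 1.18 (adjusted p = 0.0069). Ednra, the other endothelin receptor, had one of 3.40 ± 0.55 (adjusted p = 0.0084). Of 12 regulators of cGMP and G proteins 7 were called higher, beside 2.32% of all genes. Among them were both subunits of soluble guanylate cyclase: Gucy1a1 with a log2 fold of 3.06 ± 0.48 and Gucy1b1 with 3.13 ± 0.48 (edgeR adjusted p = 0.0074 and 0.0071).

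In the Notch list 5 of 12 were called higher, beside 2.32% of all genes. These were the ligand Jag1, the receptors Notch1 and Notch3, and the targets Heyl and Nrarp. Heyl stood at 127, 131, 81.5, 138 and 249 CPM, against 18.8, 14.3, 9.02, 3.82 and 3.22 CPM (log2 fold 3.37 ± 0.42, adjusted p = 0.0027). The junction list had 8 of 18 called higher and 1 lower, Cd248, beside 2.32% and 1.55% of all genes. Among those higher were the endothelial-mural connexin Gja4 (log2 fold 8.73 ± 0.78, edgeR adjusted p = 0.00084) and the adhesion gene Esam (log2 fold 7.02 ± 0.85, edgeR adjusted p = 0.0024).

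Among genes lower than in stromal cells, Akr1c18, a steroid-metabolising reductase, had 0 UMIs and was at least 175-fold lower. Sfrp2, a secreted Wnt modulator, had 5 UMIs in all Rgs5+ cells (log2 fold -6.97 ± 0.58, edgeR adjusted p = 0.00084), so the size of its fold rests on few UMIs. Of 22 interstitial matrix genes 3 were called lower, Fbn1, Fbln2 and Mfap5, and 1 higher, Mgp, beside 1.55% and 2.32% of all genes. Without the matrix-rich and Ccl19/Ccl21a cells 19 of 22 were called lower and 1 higher, beside 7.46% of all genes lower and 4.14% higher in that fit, and the median log2 fold went from -1.65 to -3.22. The cells left out were chosen for high Col1a1, Lum, Dcn and other stromal genes, so this move follows from the choice and is a description only. Col1a1 did not pass (log2 fold -2.39 ± 1.25, adjusted p = 0.47): at 7 d its level of 16759 CPM was near the 15850 CPM of stromal cells, and at later ages it was between 408 and 2735 CPM against at least 22183 CPM.

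Genes called higher than in both classes numbered 34 of 10114 (0.336%). Of the 10 ranked highest by the smaller of the 2 folds, Gbx2, Ccl21a, Bst1, Shisa3, CR974586.5 and Dsc3 had at least 93.3% of their UMIs in the 14 Ccl19/Ccl21a cells. The others were 1810011H11Rik, with none there, Grem1 with 88.1%, Serpina3f with 73.3% and Serpina3g with 64.6%.

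**Figure D4:**
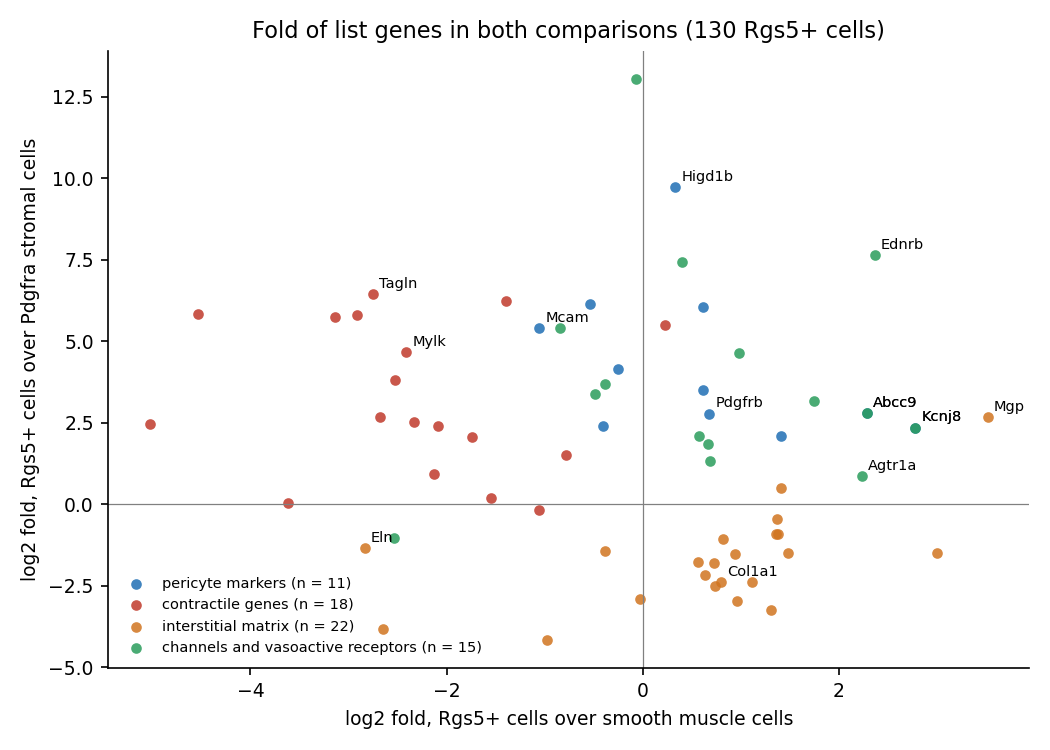
Log2 fold of list genes over smooth muscle cells (x axis) and over Pdgfra stromal cells (y axis), coloured by list. Contractile genes lie mostly at the upper left, while Kcnj8 and Abcc9 lie at the upper right.

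The third comparison set the 7 d library against the pooled later libraries within Rgs5+ cells. With 1 library per age it has no test, and a gene was counted when its CPM ratio, with 10 CPM added to both, reached 2. Of 4519 genes with at least 30 UMIs, 441 were higher at 7 d (9.76%) and 494 lower (10.9%). With the remaining 71 cells alone the counts were 102 higher (5.57%) and 135 lower (7.37%) of 1832 genes. Age, depth and library cannot be told apart here.

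Pericyte markers were lower at 7 d, with 10 of 11 past the fold and 0 higher, beside 10.9% of all genes lower. In the remaining cells 2 of 11 were past that fold, beside 7.37% of all genes lower, and the median log2 ratio moved from -1.78 to -0.74. All matrix-rich cells are 7 d cells and were lower in all 11 markers than the remaining 7 d cells. The move therefore follows from leaving them out and is a description only. Pdgfrb had a ratio of 0.280 over all cells (95% exact interval 0.227 to 0.344). Its ratio with 10 CPM added was 0.545 in the remaining cells and 0.508 in smooth muscle cells.

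Interstitial matrix genes were higher at 7 d, 14 of 21 over all cells and 2 of 16 in the remaining cells. The shares over all genes were 9.76% and 5.57%. Col1a1 had a ratio of 13.0 (11.5 to 14.8) over all cells, against 1.60 in the remaining cells with 10 CPM added. All matrix-rich cells are 7 d cells chosen by stromal genes that include Col1a1, Lum and Dcn, so the smaller values in the remaining cells follow from that choice. Mfap4, a matrix glycoprotein, stood at 1609 CPM at 7 d and had 0 UMIs in Rgs5+ cells of later ages, with 99.4% of its UMIs in matrix-rich cells.

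Inflammatory genes differed by age in the remaining cells too. Of 13 chemokines and cytokines 8 were higher at 7 d and 1, Cxcl12, lower, and in the remaining cells 6 of 7 were higher and 0 lower. Over all genes 9.76% were higher in all Rgs5+ cells and 5.57% in the remaining cells. The list summed to 8471 CPM at 7 d and 2588 CPM later in Rgs5+ cells. It was also higher at 7 d in smooth muscle cells (3944 against 1036 CPM), Pdgfra stromal cells (8743 against 2111 CPM), endothelial cells (3212 against 1537 CPM) and T cells (536 against 121 CPM). Ccl2, a monocyte attractant, stood at 1651 CPM at 7 d and at 65.5, 0, 0 and 49.8 CPM later. The remaining cells held 1235 CPM at 7 d and 39.3 CPM later. Smooth muscle cells went from 765 to 63.5 CPM. Immediate-early genes were higher for 9 of 18, beside 9.76% of all genes, and for 5 of 17 in the remaining cells, beside 5.57%. The remaining cells held 18022 CPM of this list at 7 d and 17103 CPM at 28 d, against 10565, 11491 and 2804 CPM at 14, 18 and 21 d. It was also higher at 7 d than later in smooth muscle cells (21973 against 15986 CPM) and Pdgfra stromal cells (20712 against 14560 CPM). The same held in endothelial cells (18460 against 14714 CPM) and T cells (5705 against 4916 CPM).

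Ednrb had the smallest ratio of the named genes that were lower at 7 d, with 10.2 CPM at 7 d and then 197, 1087, 1731 and 448 CPM. The ratio was 0.0160 (0.00674 to 0.0324). It leans on the 14 d library, which had the lowest later level and 91590 of the 197460 later UMIs. All 134 Ednrb UMIs lay in the remaining cells, which held 44.1 CPM at 7 d and 825 CPM later. Smooth muscle cells held 31.2 CPM at 7 d and 15.1 CPM later. In endothelial cells Ednrb was the most abundant gene of the list of channels and vasoactive receptors, with 1296 of its 3688 UMIs. That list summed to 286 CPM at 7 d and 847 CPM later in endothelial cells. An Ednrb UMI was found in 4 of the 91 Rgs5+ cells at 7 d and 8 of the 39 later, and 1 cell held 28.4% of all Ednrb UMIs in Rgs5+ cells. All 8 channels and receptors tested were lower at 7 d, beside 10.9% of all genes, and 2 of 7 in the remaining cells, beside 7.37%.

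Fabp4, a fatty acid carrier, stood at 1100, 3057, 8965, 5850 and 21683 CPM in order of age. In the remaining cells it was at 4486 CPM at 7 d and 10797 CPM later. Endothelial and adipocyte markers also stood highest at 28 d in Rgs5+ cells: 7 endothelial markers summed to 31.8 CPM at 7 d and 274 CPM at 28 d, and 4 adipocyte markers to 6.37 and 324 CPM, with Cidec at 0 UMIs and Pecam1 at 0 by the gate. Emcn and Car3 were the most abundant of each list. Over all ages these 2 lists held 42 and 26 UMIs, so the 28 d levels rest on few UMIs. The 14 adipogenic genes, most of their UMIs from Fabp4, summed to 25567 CPM at 28 d, against 16163 CPM in smooth muscle cells and 33590 CPM in endothelial cells, where 28 d was also the highest age. The part of these cell types in the Fabp4 level was not tested. Of the other named genes, Enpp2, or autotaxin, stood at 29.3 CPM at 7 d against 557 CPM later. The Ccl19/Ccl21a cells held 41.4% of its UMIs, and in the remaining cells it was at 55.1 against 432 CPM. Enpep, an aminopeptidase of the angiotensin pathway, stood at 12.7 against 238 CPM, and at 55.1 against 308 CPM in the remaining cells. Cyp4b1 stood at 36.9 against 329 CPM, and at 149 against 425 CPM in the remaining cells. Adipogenic genes were lower for 6 of 8 tested, beside 10.9% of all genes, and for 2 of 7 in the remaining cells, beside 7.37%.

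The higher 7 d level of the globin gene Hbb-bs rested largely on 1 cell, which held 85.9% of its 724 UMIs. The 4 erythroid markers summed to 1370 CPM at 7 d and 15.2 CPM later. Markers of T cells, B cells, macrophages and mast cells together stayed at or under 101 CPM per list at 7 d and in the pooled later ages, with C1qa and C1qb at 0 UMIs. The B cell list reached 423 CPM at 28 d, where the 13 Rgs5+ cells held 40169 UMIs. Over all ages the list had 51 UMIs, with Cd79a its most abundant gene. A single 28 d cell held 14 UMIs of T cell, B cell, macrophage or endothelial markers in sum. Per the study's methods doublets were taken out with Scrublet. In the deposited matrix 11 of the 130 cells had over 2 UMIs of T cell, B cell, macrophage or endothelial markers in sum.

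**Figure D5:**
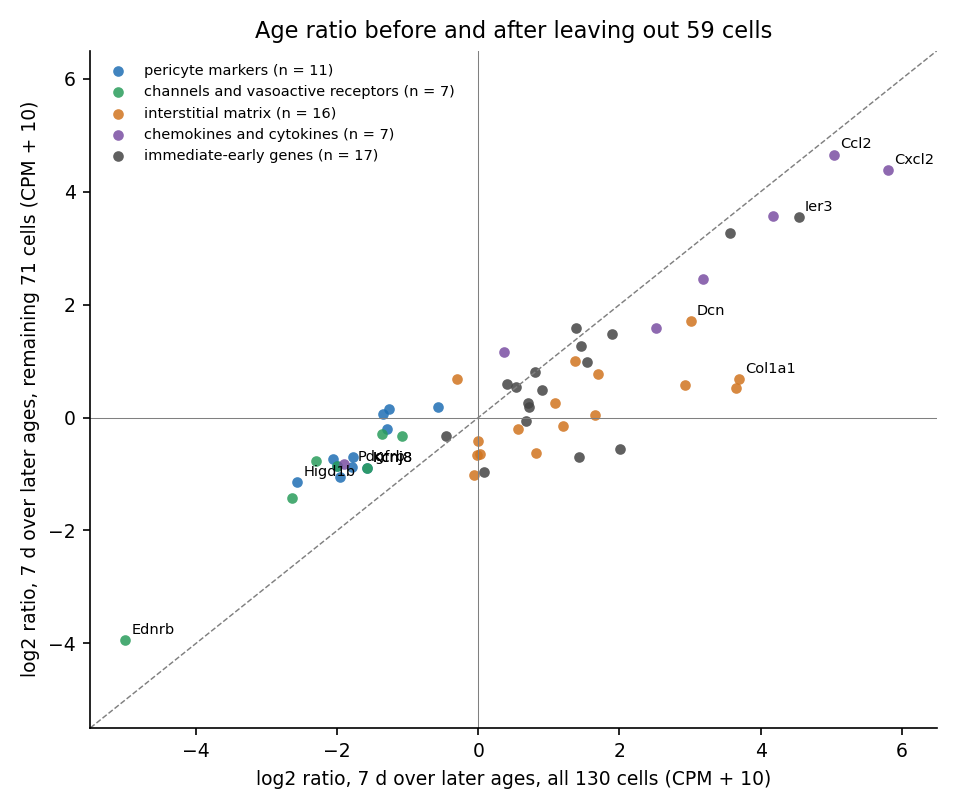
Log2 ratio of 7 d to later ages over all 130 Rgs5+ cells (x axis) and over the remaining 71 (y axis), both on CPM + 10, for list genes with at least 30 UMIs in the remaining cells. Points on the dashed line are equal in both; Col1a1 has a ratio of 12.9 on the x axis and 1.60 on the y axis, while Ccl2 (32.9 and 25.3) lies close to the line.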

How the data were processed

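The authors sequenced 10x 3' v3.1 libraries of the stromal vascular fraction and, per the submitters' processing notes, used Cell Ranger 3.1.0 and the mouse build GRCm38 (mm10). Their methods state that doublets were taken out with Scrublet. They deposited 1 matrix of raw UMI counts of 31053 genes in 46684 cells, with the library in the barcode suffix. No cell lay outside the stated limits of 200 to 6000 genes and at most 20% mitochondrial UMIs. Library totals were 128841585, 50432106, 42690542, 126849628 and 60812002 UMIs in order of age.

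UMIs were summed per library and class, and ages with under 20 Rgs5+ cells were pooled. Genes kept by filterByExpr were tested with edgeR 4.0.16 (R 4.3.3; TMM, quasi-likelihood, Benjamini-Hochberg adjustment, library as block, since both classes of a library come from the same 2 pooled mice). The genes of the gates were not tested. DESeq2 1.42.0 was an alternative. p-values measure only the spread between the pairs of libraries. On simulated counts for the smooth muscle comparison (10288 genes), 48 of 65 genes changed by a log2 fold of 2 were called and 2 of 10093 unchanged genes. In the stromal comparison (11777 genes) 28 of 63 and 1 of 11587 were called. Of genes changed by a log2 fold of 1, the size of the calling threshold, 6 of 65 were called in the smooth muscle comparison. In the stromal comparison 2 of 65 were called, so most changes of that size were missed. The real pairs differ in their mix of matrix-rich and other cells. Whether these rates, including the low rate for unchanged genes, hold for the real pairs was not tested.

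Named genes were the 15 called genes with the largest log2 fold in each comparison and the smallest 15 (smooth muscle) or 10 (stromal), at 50 CPM or more in the higher class and with 1 direction in every pair, the 10 highest above both classes, the 12 most extreme in each direction at 7 d, and any gene of the lists. Some genes between these are named with their values. The members and lists were chosen with earlier results of these data known. The matrix-rich and Ccl19/Ccl21a ranges were set after the values were seen. No further doublet caller was run. Intervals and floors (3 UMIs) cover counting error only. One named gene is not reported here.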

Additional observations from a re-analysis of the deposited data

Results flagged for a closer look

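These genes stood on opposite sides of smooth muscle cells at 7 d and in each later library. The ratio of summed CPM in Rgs5+ cells to that in smooth muscle cells was above 1 at 7 d and below 1 later, or the reverse. The difference between ages was not tested, since each age is 1 library. For 5 of the 26 genes, Il6, Vcan, Ier3, Col15a1 and Trpc6, at least 1 later library had under 3 UMIs in Rgs5+ cells and a smooth muscle level below that floor, so these genes could not be placed on a side in every later library.

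Among matrix and related genes the 7 d ratio was 7.84 for Col1a1 (0.348 in pooled later ages), 8.43 for Col1a2, 5.31 for Col3a1, 5.11 for Col15a1, 8.45 for Vcan, 4.78 for Dpt, 1.71 for Fbn1, 1.64 for Lox and 2.49 for Igfbp4. Among stress and signalling genes it was 5.33 for Il6 (0 UMIs later), 1.28 for Ier3, 1.13 for Junb, 1.31 for Klf2, 1.38 for Gadd45b and 1.52 for Id3.

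Mural and metabolic genes lay the other way. The 7 d ratio was 0.477 for Higd1b (2.87 later), 0.326 for Ednrb (42.4 later), 0.610 for Des, 0.248 for Trpc6, 0.580 for Gng11, 0.791 for Cxcl12 and 0.732 for Gjc1. It was 0.252 for Fabp4 (1.59 later), 0.483 for Cd36, 0.904 for Ebf1 and 0.679 for Cox4i1. In the 38 remaining 7 d cells the ratio lay on the same side of 1 as in later ages for all of these genes except Il6 (1.94), Col3a1 (1.02) and Cox4i1 (0.980). The remaining cells were chosen for low stromal genes that include Col1a1 and Dpt, so for the matrix genes this turn (to 0.820 for Col1a1 and 0.779 for Dpt) follows from the choice. Higd1b and Ednrb had 0 UMIs in the 7 d cells left out, so their turn follows from leaving those cells out.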

How the results depend on the processing

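The counts moved with most settings. Opposite calls occurred without both ranges: Ccl19, Ccl21a and Clu against smooth muscle cells, where 41 of 56 higher genes still tested kept their sign, and Serpina3n against stromal cells, with 0 UMIs left, where 257 of 264 did. Settings that kept both ranges gave no opposite call in either fit. At 7 d there were 10 opposite calls without 14 d and at most 1 under any other setting. Against smooth muscle cells (75 higher, 162 lower) the counts were 0 and 0 with no replicate block, 266 and 463 with no filter on low counts, 49 and 100 with at least 5 Rgs5 UMIs, 35 and 65 with Myh11 at 0, 26 and 50 with a stricter cell filter, and 24 and 23 with cells thinned to 1000 UMIs. DESeq2 called 100 lower, and a smooth muscle gate without Pdgfra, Ptprc and Pecam1 UMIs gave 123 higher. Alternatives chosen after seeing the data gave 292 and 482 without matrix-rich cells, and 196 and 338 without both ranges. Leaving out 1 later library gave 29 to 84 higher and 101 to 176 lower, the lowest without 14 d (29 and 101), and 55 and 106 without 28 d. Without 7 d the pooled design has only 1 pair, which cannot be fitted. With each later library as its own pair, also chosen after seeing the data, 68 were higher and 160 lower of 3657 genes.

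Against stromal cells (279 higher, 187 lower) the counts were 16 and 7 with no replicate block, 483 and 476 with no filter, 471 and 453 with at least 5 Rgs5 UMIs, 436 and 385 with the stricter cell filter, and 504 and 511 with a stromal gate of 1 Pdgfra UMI. RLE factors gave 297 lower, Myh11 at 0 gave 371 lower, and thinning gave 175 higher. Alternatives chosen after seeing the data gave 457 and 841 with each library as its own pair, 385 and 1001 with the same and no 7 d, 703 and 991 without matrix-rich cells, 490 and 883 without both ranges, and 517 and 1301 without both and each library as its own pair. Leaving out 1 later library gave 304 to 392 higher and 232 to 345 lower, the highest lower count without 14 d and 310 without 18 d. The share of calls that were higher went from 31.6% to 51.1% when thinned, 42.9% with the stricter smooth muscle gate and 20.1% with each library as its own pair. Against stromal cells it went from 59.9% to 35.2% with own pairs and 35.7% without both ranges. With no filter the median log2 fold of all genes was -0.23 against smooth muscle and -0.48 against stromal cells, and with own pairs it was -0.24 against stromal cells.

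At 7 d (441 higher, 494 lower) a pseudocount of 50 CPM gave 216 and 210, a minimum of 100 UMIs gave 203 and 128, and the counts were 141 and 196 without matrix-rich cells and 102 and 135 without both ranges. Leaving out 1 later age gave 474 to 558 higher and 486 to 532 lower. The 7 d share became 0.356% with at least 5 Rgs5 UMIs and 0.246% without both ranges. Over cells without a Ptprc UMI the shares were 1.46, 0.707, 0.223, 0.0710 and 0.593% in order of age, and the 28 d share was 0.0886% with the stricter cell filter. The ratio to smooth muscle cells at 7 d was 0.0723 with at least 5 Rgs5 UMIs, 0.172 with the stricter smooth muscle gate and 0.0499 without both ranges. At 28 d it was 0.542 with the stricter smooth muscle gate.

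Named results whose fitted sign turned without both ranges were Ccl21a (log2 fold -4.28) and Ccl19 (-2.38) against smooth muscle cells. Against stromal cells they were Ccl21a (-1.09), Shisa3 (-9.48) and Serpina3n (-11.9). The 7 d ratio of Pdgfrl also turned (0.523, and 0.544 without matrix-rich cells alone). All of these genes have nearly all of their UMIs in the cells removed, so the values rest on few or no UMIs. There were 0 left for Shisa3 and Serpina3n, 2 for Ccl21a and 4 each for Ccl19 and Pdgfrl. Against stromal cells Shisa3 and Ccl21a had edgeR adjusted p = 0.50 and 0.67, and Serpina3n had 0.035 over 0 UMIs. Of the named 7 d ratios, 23 were counted as moved and 1 as the same with a pseudocount of 50 CPM. With the mean of the per-cell CPM 10 were moved and 14 the same. Leaving out 1 later library moved 2 to 4 of them. Without both ranges 19 were moved, 1 reversed and 4 the same. Kcnj8 lost its call against smooth muscle cells with no replicate block, and Abcc9 there and with the stricter cell filter.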

Other observations

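The basement membrane genes, which encode the sheet that surrounds capillaries and their mural cells, were at similar summed levels in Rgs5+ cells at 7 d (5164 CPM) and later (5161 CPM), but the members went both ways. Of 12 with at least 30 UMIs, Lama2 and Col15a1 were at least 2-fold higher at 7 d, and Lama4, Lamc1, Hspg2 and Col18a1 at least 2-fold lower. In the remaining cells 0 of 9 passed that fold. Of 14 tested, 0 were called higher and 1 lower, Lama5, than in smooth muscle cells, beside 0.727% and 1.57% of all genes. Without the matrix-rich and Ccl19/Ccl21a cells 4 were higher and 2 lower (2.0% and 3.44% of all genes). Against stromal cells 2 were called higher, Lama5 and Agrn, and 0 lower (2.32% and 1.55% of all genes), and without those cells 5 were higher and 4 lower (4.14% and 7.46%). Of 23 genes of the TGFb and BMP pathway, Grem1 was called higher and Id4 lower than in smooth muscle cells. Beside 0.727% and 1.57% of all genes, a single gene each way is no result about the list. The Ccl19/Ccl21a cells held 88.1% of the Grem1 UMIs. Without both ranges 0 of 22 were called higher and 5 lower (2.0% and 3.44% of all genes). Id4, an inhibitor of helix-loop-helix factors, had a log2 fold of -1.46 ± 0.29 (edgeR adjusted p = 0.042) there and 2.61 ± 0.39 (edgeR adjusted p = 0.0058) against stromal cells.

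The letters TGGGAA were in a promoter of 25 of the 51 genes called higher than in smooth muscle cells that had one (49.0%), beside 28.3% of all genes. The CArG box in its exact form was in 12 of 125 genes called lower (9.6%), beside 1.81% of all genes. These shares are descriptions, and most of the named genes called higher lay in the Ccl19/Ccl21a cells.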
